A study of Mus musculus with 9 samples.

Results

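The C/EBP (CCAAT/enhancer binding protein) genes described here are Cebpa, Cebpb, Cebpd, Cebpg and Cebpz, 5 of the 53801 genes counted in CD11b+ cells sorted from mouse gliomas. They were taken by their family name from the symbols that annotate the Ensembl identifiers. The family was picked out because of the measured values of Cebpb, which were higher with the anti-PD-1 antibody alone and in combination and not with OAT-1746 alone, so Cebpb is described without any test. All 5 passed the filter on low counts, as did 12538 of the 21890 protein-coding genes.

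The 9 libraries came from male C57BL/6J mice, 10 to 12 weeks old when the study began, that carried implanted GL261 tdTomato+luc+ glioma cells. CTR mice (2 libraries) received saline, OAT-1746 mice (2 libraries) were given this oral inhibitor of arginases at 50 mg/kg, anti-PD-1 mice (2 libraries) had the antibody injected at 2.5 mg/kg between days 8 and 14, and COMB mice (3 libraries) were given both agents. CD11b+ cells were sorted from the tumor-bearing hemispheres on day 28 according to the methods, although a legend of the same study names day 21. For replicate 2 of anti-PD-1 the labels name a different antibody (anti-PD-2) as treatment, and this library was grouped by its title. Total counts were 17490386 and 17729568 in CTR, 17380045 and 16784406 in OAT-1746, 14356928 and 18796479 in anti-PD-1, and 13048075, 16144518 and 14806017 in COMB.

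C/EBP proteins are transcription factors with a basic leucine zipper (bZIP), which pair with each other or with other bZIP proteins and bind DNA as dimers. In myeloid cells C/EBP alpha directs the commitment of progenitors to the granulocyte and monocyte lineages, while C/EBP beta and C/EBP delta are induced by cytokines and bacterial products in macrophages. C/EBP gamma lacks a strong activation domain and pairs with ATF4, and the product of Cebpz, a CCAAT-binding protein of the nucleus, has no bZIP domain despite its name.

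One library stood apart from the others before any gene was compared. Log2 expression of OAT-1746 replicate 2 correlated with the other libraries at r of 0.911 to 0.956, whereas the other 8 libraries correlated with each other at 0.960 to 0.989. Its monocyte and macrophage markers (8 genes, Plac8 the most abundant) summed to 411 CPM (counts scaled to a common library size by TMM), against 2017 to 3485 in the other libraries. Every difference that involves OAT-1746 therefore rests on 1 typical and 1 atypical library, and values without replicate 2 are given for the members, Ddit3 and the called genes of the lists. In bulk RNA, fewer cells of a type and less RNA per cell cannot be told apart. The COMB libraries were not equally alike. Replicates 2 and 3 correlated at 0.989, and replicate 1 with them at 0.978 and 0.983. The scatter of counts between 2 libraries (chi-square per degree of freedom) was 8.10 for COMB replicates 2 and 3. It was 55.2 and 40.4 for COMB replicate 1 with these, and 34.7 to 93.9 within the other groups. The reason was not tested.

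Promoter sequences from RefSeq (build GRCm38.p6) were available for 3 of the 5 members and are shown because Cebpb differed with the antibody more than Cebpa or Cebpg, which lie on the same stretch of chromosome 7. Each runs 5' to 3' on the strand of its gene, from 250 bases before the start site to 50 after it. Capitals mark the motif matches found. The set of promoters used held none for Cebpd and Cebpz.

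Cebpa: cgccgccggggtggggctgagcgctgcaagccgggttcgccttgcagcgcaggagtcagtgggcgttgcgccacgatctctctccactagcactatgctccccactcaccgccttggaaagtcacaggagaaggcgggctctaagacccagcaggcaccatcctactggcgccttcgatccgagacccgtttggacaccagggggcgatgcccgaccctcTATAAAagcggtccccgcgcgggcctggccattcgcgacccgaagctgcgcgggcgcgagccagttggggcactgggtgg
Cebpb: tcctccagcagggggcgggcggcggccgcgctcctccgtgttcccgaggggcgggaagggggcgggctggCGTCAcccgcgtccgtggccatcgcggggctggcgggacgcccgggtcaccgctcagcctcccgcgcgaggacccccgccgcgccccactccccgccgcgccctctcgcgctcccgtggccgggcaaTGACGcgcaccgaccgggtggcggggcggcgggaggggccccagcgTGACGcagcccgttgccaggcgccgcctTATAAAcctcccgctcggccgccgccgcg
Cebpg: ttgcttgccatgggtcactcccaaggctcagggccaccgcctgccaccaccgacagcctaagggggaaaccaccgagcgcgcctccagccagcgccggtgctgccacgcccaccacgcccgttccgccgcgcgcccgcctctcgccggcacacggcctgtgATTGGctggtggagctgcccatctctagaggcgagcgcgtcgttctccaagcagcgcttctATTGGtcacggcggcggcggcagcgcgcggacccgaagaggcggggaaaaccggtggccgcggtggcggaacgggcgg

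The Cebpa window is chr7:35119043-35119342 on the plus strand, that of Cebpb is chr2:167688665-167688964 on the plus strand, and that of Cebpg is chr7:35056517-35056816 on the minus strand. All 3 are rich in G and C, with 67.3% for Cebpa, 80.7% for Cebpb and 71.7% for Cebpg against a median of 52.7% over 32841 windows of the same kind. They hold 29, 50 and 38 CpG dinucleotides in that order, against a median of 7. The letters of 5 motifs were searched on both strands. TATAAA, in 13.6% of all windows, occurs in Cebpa at position -30 and in Cebpb at position 21 relative to the start site. TGACG, in 20.8% of windows, occurs 3 times in Cebpb, at -180 on the opposite strand and at -53 and -7 on the gene's own strand. CCAAT, in 37.4% of windows, occurs in Cebpg on the opposite strand at -89 and -28, where the printed strand reads ATTGG. Neither TTNNGNAA (40.7% of windows) nor TTCNNNGAA (8.30%) is present in the 3 windows. These matches describe letters only.

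The transcribed parts of the genes differ as much. Cebpb (ENSMUSG00000056501) is a gene of 1 exon and 1504 bases at chr2:167688915-167690418 with 67.2% G and C, and Cebpa (ENSMUSG00000034957) covers 2636 exon bases at chr7:35119293-35121928 with 62.6%. Cebpd (ENSMUSG00000071637, chr16:15887286-15891031) has 3746 exon bases and 51.6% G and C, while Cebpg (ENSMUSG00000056216, chr7:35046422-35056573) has 5621 exon bases and 43.3%. Cebpz (ENSMUSG00000024081, chr17:78919006-78937066) is spliced from up to 16 exons with 4658 bases in all and 43.4% G and C. Exons of Cebpb overlap Tmem189 by 312 bases and those of Cebpd overlap Spidr by 562 bases, in both cases on the other strand, as do those of Cebpz with Cebpzos (171 bases), and reads were counted by strand. Cebpg shares 73 bases with Gm44836 on the same strand, where reads of the 2 genes cannot be told apart by strand.

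Per kilobase of exon, Cebpa and Cebpb were the abundant C/EBP mRNAs of these cells and the other 3 members were far lower. In CTR the levels were 132 ± 24.6 CPM per kilobase for Cebpa (SD, n = 2) and 121 ± 46.9 for Cebpb, and the libraries of these neighbours in the order overlapped. Cebpz at 13.2 ± 0.855, Cebpg at 11.9 ± 1.71 and Cebpd at 11.7 ± 0.275 followed. Cebpg overlapped both Cebpz and Cebpd in CTR, whereas Cebpz and Cebpd did not overlap each other.

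The order at the top differed between groups. Cebpa at 154 ± 32.8 CPM per kilobase was above Cebpb at 91.0 ± 40.6 in OAT-1746 (n = 2). In anti-PD-1, Cebpb reached 437 ± 93.5 against 184 ± 11.1 for Cebpa, and in COMB (n = 3) Cebpb stood at 299 ± 59.7 against 171 ± 8.92. Every one of the 5 libraries from antibody-treated mice had more Cebpb than Cebpa per kilobase, as did 1 of the 4 others, CTR replicate 1. Cebpa and Cebpb overlapped in CTR and were apart in the other 3 groups. Below them the order was Cebpd, Cebpz, Cebpg in OAT-1746 (20.02, 17.2 and 14.8), Cebpd, Cebpz, Cebpg in anti-PD-1 (14.96, 14.3 and 13.3) and Cebpg, Cebpd, Cebpz in COMB (15.3, 12.4 and 12.3). Of those neighbours, Cebpd did not overlap Cebpz in OAT-1746, Cebpz did not overlap Cebpg in OAT-1746 and Cebpg did not overlap Cebpd in COMB, while the remaining pairs overlapped. The order of the low members also depends on the length used: with the longest transcript in place of all exon bases the mean of Cebpg over the 9 libraries was 16.7 CPM per kilobase instead of 13.96, and that of Cebpz 16.1 instead of 14.1.

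**Figure D1:**
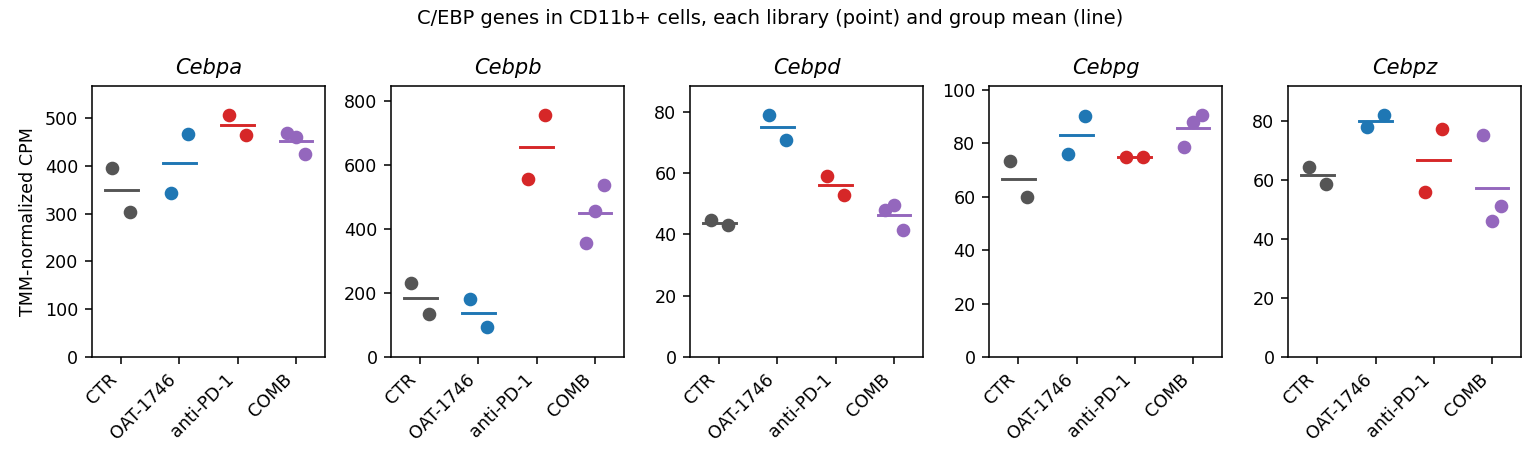
TMM-normalized CPM of the 5 C/EBP genes in each library (points), with the group mean as a line, with 3 libraries in COMB and 2 in each other group. Cebpb spans 93.7 to 233 CPM without the antibody and 357 to 756 with it, while Cebpd is highest in OAT-1746.

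Cebpb encodes C/EBP beta, the family member known for inflammatory and immunosuppressive programs of macrophages. Its level was 233 and 133 CPM in the CTR libraries, 180 and 93.7 in OAT-1746, 557 and 756 in anti-PD-1, and 357, 455 and 537 in COMB. The 5 libraries with antibody were all above the 4 without it, the nearest values being 357 in COMB replicate 1 and 233 in CTR replicate 1. CTR and OAT-1746 overlapped, while anti-PD-1 stood just above COMB, with nearest values of 557 and 537. These levels rest on 1637 to 13415 counts per library.

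As a description, the log2 difference of Cebpb from CTR was 1.85 in anti-PD-1 (SE 0.37), 1.30 in COMB (SE 0.35) and -0.42 in OAT-1746 (SE 0.36). The last value was -0.01 without OAT-1746 replicate 2, -0.97 without OAT-1746 replicate 1 and 0.05 without CTR replicate 1, so its sign depends on single libraries. COMB against CTR was 1.78 without CTR replicate 1. COMB stood 1.72 above OAT-1746 (SE 0.35), or 1.33 without OAT-1746 replicate 2, and was at -0.55 relative to anti-PD-1 (SE 0.33). All 3 differences from CTR share the same CTR libraries. Cebpb has the highest share of G and C of the 5 members, and after a correction for GC content and length the differences from CTR were 1.39 in anti-PD-1 and 0.83 in COMB.

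Complete separation of the 5 antibody libraries above the 4 others was met by 1.67% of the 12538 genes tested and by 1 of the 5 members, Cebpb, for which nothing is read from this share because that pattern chose the gene. Cebpb also varied most within groups, with a pooled SD of 0.46 on the log2 scale against 0.28 for Cebpz, 0.19 for Cebpa, 0.14 for Cebpg and 0.11 for Cebpd.

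Cebpa encodes C/EBP alpha, the lineage factor of granulocytes and monocytes. It was at 395 and 303 CPM in CTR, 344 and 466 in OAT-1746, 506 and 465 in anti-PD-1, and 469, 460 and 425 in COMB. Both anti-PD-1 libraries and all 3 COMB libraries were above CTR, while OAT-1746 overlapped every other group. The log2 fold change against CTR was 0.48 in anti-PD-1 (95% interval 0.02 to 0.93) and 0.37 in COMB (-0.05 to 0.79), with Benjamini-Hochberg adjusted p of 0.951 and 0.767 in edgeR's quasi-likelihood test. In OAT-1746 it was 0.22 (adjusted p = 0.472 in edgeR), and -0.01 without replicate 2.

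Cebpd encodes C/EBP delta, an acute-phase member of the family, and its highest levels were with OAT-1746 alone. Its level was 44.6 and 43.1 CPM in CTR, 79.0 and 71.0 in OAT-1746, 59.2 and 52.9 in anti-PD-1, and 47.9, 49.7 and 41.5 in COMB. The OAT-1746 libraries were above every library of the other groups, anti-PD-1 came next with both libraries above CTR and COMB, and CTR overlapped COMB. Both OAT-1746 libraries share this level, the atypical replicate 2 having the lower of the 2 values.

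Cebpd fell in COMB relative to OAT-1746, with a log2 fold change of -0.69 (SE 0.13, upper 95% bound -0.39, adjusted p = 0.0237 in edgeR) and lower values in 3 of 3 COMB libraries. Without OAT-1746 replicate 2 the difference was -0.76 (adjusted p = 0.116 in edgeR), without COMB replicate 2 it was -0.75 (0.0876) and without COMB replicate 3 it was -0.62 (0.113), so the call depends on each of these libraries. A model with the replicate number as a block gave -0.62 (adjusted p = 0.217 in edgeR). In every fit with this block COMB replicate 3 has a term of its own, since no other group has a replicate 3. That library then adds nothing to the group differences, so the block is not a check separate from leaving it out.

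Against CTR, Cebpd in OAT-1746 had a log2 fold change of 0.77 (95% interval 0.44 to 1.11), which did not pass the test (adjusted p = 0.0610 in edgeR). DESeq2 called the same difference at an adjusted p of 0.00217, and edgeR called it without OAT-1746 replicate 1 (0.69, adjusted p = 0.0220) and without COMB replicate 1 (0.78, adjusted p = 0.0465). Without OAT-1746 replicate 2 the value was 0.86 (adjusted p = 0.234 in edgeR). In anti-PD-1 and COMB the log2 fold changes against CTR were 0.35 and 0.08 (adjusted p of 0.951 and 0.913 in edgeR). The effect of OAT-1746 on Cebpd with the antibody minus that without it, the interaction, was -1.05 (95% interval -1.50 to -0.59, adjusted p = 0.0662 in edgeR). It was called by DESeq2 (-1.02, adjusted p = 0.00334), by limma voom (-1.14, 0.0423), and by edgeR without OAT-1746 replicate 1 (-0.96, 0.0206) or without COMB replicate 1 (-1.08, 0.0448), but not without OAT-1746 replicate 2 (-1.11, 0.116).

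Cebpg encodes C/EBP gamma, a partner of other bZIP proteins. It measured 73.5 and 59.9 CPM in CTR, 76.0 and 90.2 in OAT-1746, 74.9 and 74.7 in anti-PD-1, and 78.5, 88.1 and 90.6 in COMB. Each treated group had all its libraries above both CTR libraries, by little in anti-PD-1, and OAT-1746 overlapped COMB. The log2 fold changes against CTR were 0.32 for OAT-1746, 0.17 for anti-PD-1 and 0.36 for COMB, with adjusted p of 0.199, 0.974 and 0.752 in edgeR. The value for OAT-1746 was 0.20 without its replicate 2 (adjusted p = 0.607 in edgeR).

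Cebpz, the member without a bZIP domain, was at 64.5 and 58.8 CPM in CTR, 78.2 and 82.1 in OAT-1746, 56.1 and 77.4 in anti-PD-1, and 75.3, 46.0 and 51.2 in COMB. OAT-1746 was above every other library, and the anti-PD-1 and COMB libraries spread to both sides of CTR. COMB against OAT-1746 was -0.48 on the log2 scale (95% interval -0.98 to 0.02, adjusted p = 0.146 in edgeR), and without COMB replicate 1 it was -0.75 and called (adjusted p = 0.0234). Against CTR it was 0.38 for OAT-1746, 0.12 for anti-PD-1 and -0.10 for COMB (adjusted p of 0.297, 0.980 and 0.939 in edgeR). Without OAT-1746 replicate 2, COMB against OAT-1746 was -0.43 (adjusted p = 0.404 in edgeR) and OAT-1746 against CTR was 0.35 (0.570).

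**Figure D2:**
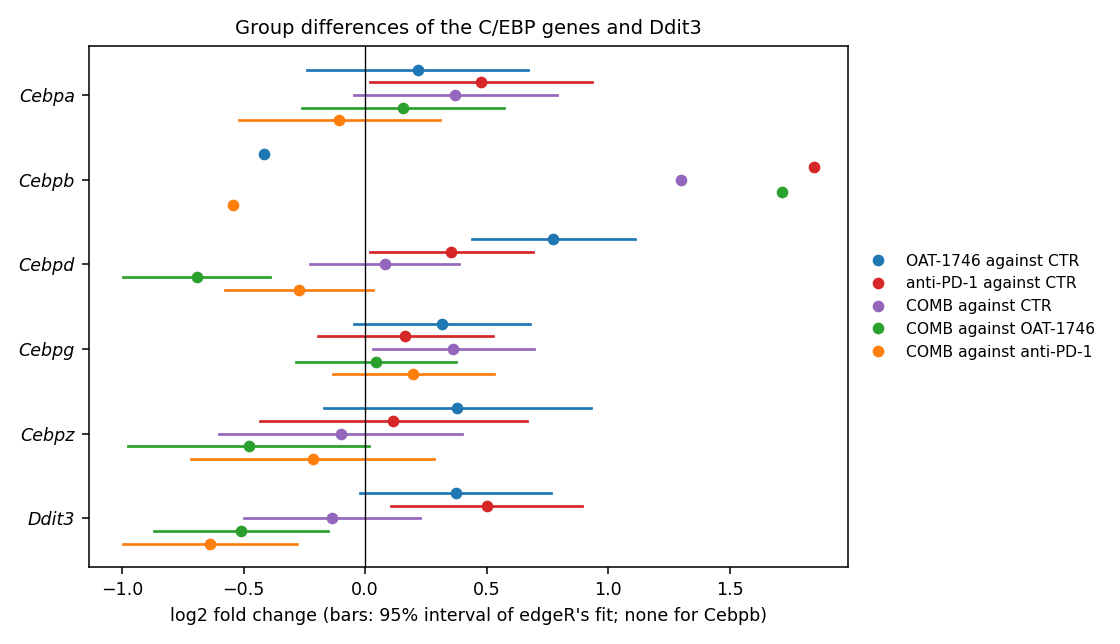
Log2 fold changes of the 5 C/EBP genes and Ddit3 in 5 comparisons (points), with the 95% interval of edgeR's fit as bars except for Cebpb, which is shown without one. Cebpd is at 0.77 in OAT-1746 against CTR and at -0.69 in COMB against OAT-1746.

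Counted over the 4 members other than Cebpb, edgeR called 0 (adjusted p under 0.05) in OAT-1746 against CTR, where 0% of the 12538 genes tested were called. At an unadjusted p under 0.05 it had 1 member, DESeq2 called 1 and limma voom 0. DESeq2 called 16.4% of genes in that comparison, so 1 of 4 is near its background. Over all genes, edgeR called 0 with every library, 3617 without OAT-1746 replicate 1 and 278 without COMB replicate 1.

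In anti-PD-1 against CTR the count was 0 of 4 with 0% of all genes called by edgeR, 2 at an unadjusted p under 0.05 and 0 by DESeq2 or limma voom. COMB against CTR gave 0 of 4 with 0% of all genes, 1 at an unadjusted p under 0.05 and 0 by DESeq2 or limma voom. COMB against anti-PD-1 likewise gave 0 of 4 with 0% of all genes, and 0 also at an unadjusted p under 0.05, by DESeq2 and by limma voom. Over all genes edgeR's 0 calls in that comparison became 52 without OAT-1746 replicate 1, 41 without OAT-1746 replicate 2 and 5 without anti-PD-1 replicate 1, all lower in COMB, and limma voom called 35. In COMB against OAT-1746 edgeR, DESeq2 and limma voom each called 1 of 4, Cebpd, where edgeR called 15.8% of all genes, 6.84% higher in COMB and 8.94% lower. DESeq2 called 25.4% of all genes there and limma voom 22.4%. A share of 1 in 4 among so few genes is not a result about the family. Over all genes, an unadjusted p under 0.05 in edgeR was reached by 4049 for OAT-1746, 642 for anti-PD-1 and 825 for COMB against CTR and by 907 in COMB against anti-PD-1, while DESeq2 called 1972, 14, 35 and 47 in the same order.

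For the average effect of the antibody over both inhibitor settings edgeR called 0 of 4 members and 0.00798% of genes, with 1 member at an unadjusted p under 0.05 (17.5% of genes) and 0 by DESeq2 (2.55% of genes) or limma voom. For the interaction it called 0 of 4 and 0.359% of genes, with 1 at an unadjusted p under 0.05 (26.2% of genes) and 1, Cebpd, by DESeq2 (9.50% of genes) and by limma voom (3.41% of genes).

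Separation of whole groups shows the members from another side. Cebpb is left out of these counts, since such a pattern chose it. Both OAT-1746 libraries were above both CTR libraries for 3 of the other 4 members (Cebpd, Cebpg and Cebpz), a pattern of 30.8% of all genes tested. The same held for both anti-PD-1 libraries in 3 of 4, Cebpa, Cebpd and Cebpg (20.6% of genes), and for all 3 COMB libraries in 2 of 4, Cebpa and Cebpg (12.1% of genes). All 3 COMB libraries were below both OAT-1746 libraries for Cebpd and Cebpz, 2 of 4 (28.9% of genes), and below both CTR libraries for 0 of 4 (15.8% of genes). Among 4 genes these counts are descriptions.

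Summed per kilobase, the bZIP genes of the family other than Ddit3 (Cebpa, Cebpb, Cebpd, Cebpg and Cebpe) amounted to 331 and 226 CPM per kilobase in CTR, 286 and 274 in OAT-1746, 595 and 707 in anti-PD-1, and 444, 508 and 546 in COMB. Ddit3, at 8.57 to 15.4 CPM per kilobase, was left out of this sum. In the sum the antibody groups did not overlap the others, and Cebpb, chosen for that pattern, supplied most of the excess. Cebpb made up 46.7% and 39.0% of this pool in CTR, 41.8% and 22.7% in OAT-1746, 62.2% and 71.1% in anti-PD-1, and 53.6%, 59.7% and 65.4% in COMB.

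The share of Cebpa moved the other way, from 45.3% and 50.7% in CTR and 45.6% and 64.5% in OAT-1746 to 32.3% and 24.9% in anti-PD-1 and 40.1%, 34.4% and 29.5% in COMB. The ratio of Cebpb to Cebpa per kilobase was 1.03 and 0.769 in CTR, 0.917 and 0.352 in OAT-1746, 1.93 and 2.85 in anti-PD-1, and 1.33, 1.74 and 2.22 in COMB. Both measures contain Cebpb and are descriptions.

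**Figure D3:**
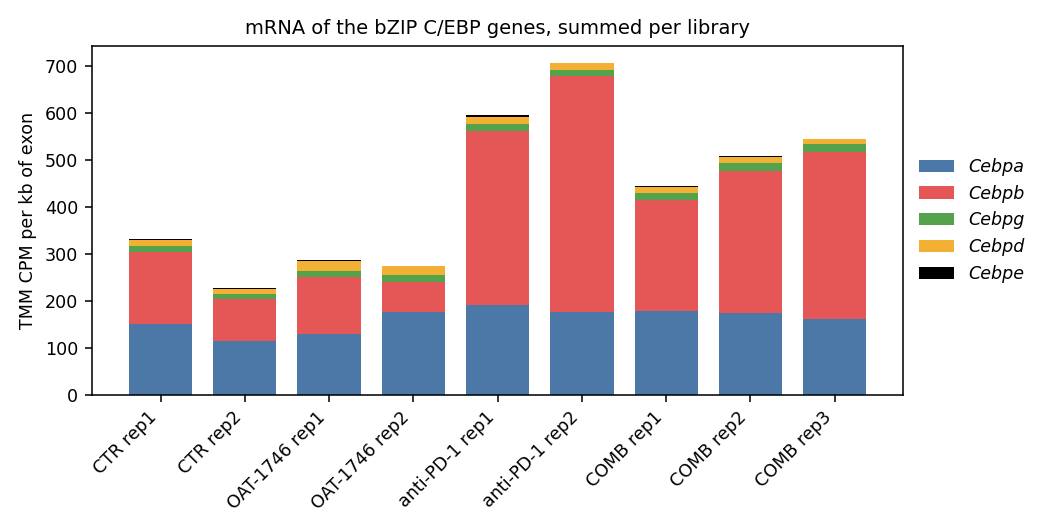
Stacked TMM-normalized CPM per kilobase of exon of the bZIP C/EBP genes other than Ddit3 in each of the 9 libraries, 1 color per gene. The summed height is 226 to 331 in libraries without the antibody and 444 to 707 with it, and Cebpb is the segment that differs most.

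Of the other bZIP genes of the family, Cebpe, a factor of late granulocyte maturation, was scarcely present, at 0.229 to 4.32 CPM. Ddit3, which encodes the stress-induced inhibitor CHOP, was at 16.2 and 18.7 CPM in CTR, 24.7 and 20.5 in OAT-1746, 23.1 and 26.3 in anti-PD-1, and 15.6, 17.4 and 14.7 in COMB. Each agent alone was above CTR and COMB in all its libraries, and COMB overlapped CTR. Ddit3 did not pass in COMB against OAT-1746 (log2 fold change -0.51, adjusted p = 0.0565 in edgeR), although edgeR called it with GC content and length correction (-0.94, 0.0144) and with library size alone (-0.56, 0.0425). Without OAT-1746 replicate 2 it was -0.62 (0.168). Its interaction was -1.01 (adjusted p = 0.0850 in edgeR), called by DESeq2 (-0.99, 0.0208) and by edgeR without OAT-1746 replicate 1 (-0.87, 0.0428) but not without OAT-1746 replicate 2 (-1.12, 0.140).

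Genes whose log2 level followed each member most closely over the 9 libraries were sought among 9417 genes. The highest of so many r values over 9 libraries would be large for unrelated genes too, so the names are descriptions and were not tested. For Cebpb they were Farsa (Pearson's r of 0.944), Tlnrd1 (0.942), Hnrnpa0 (0.935), Casp1 (0.934) and Snx20 (0.933). For Cebpa they were Slc15a4 (0.961), Mmaa (0.943), Polr1b (0.937), Wdr82 (0.923) and Wdr73 (0.904).

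Cebpd was followed by Sh2b2 (0.945), Phf23 (0.933), Fbxl14 (0.930), 2410002F23Rik (0.930) and Zbtb48 (0.928), and Cebpg by Pecam1 (0.914), Yipf4 (0.911), Ccdc61 (0.911), Ppp1r12b (0.897) and Nipa1 (0.894). For Cebpz the r values were highest of all, with Synrg (0.972), Dzip3 (0.967), Rock2 (0.965), Btbd7 (0.965) and Ddx6 (0.963). No gene is in more than 1 of the 5 sets, and r over 9 libraries of 4 groups takes in differences between groups as well as within them.

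Genes that act with, on or under the C/EBP proteins were described from lists. All these lists were chosen with earlier results of these data known, so their counts are descriptions and not results about the lists. Calls in COMB against OAT-1746 rest on few libraries throughout: over all genes edgeR called 1979, but 27 without OAT-1746 replicate 2, 14 without COMB replicate 2 and 5 without COMB replicate 3. It called 4033 without OAT-1746 replicate 1 (31.4% of genes, 18.1% higher in COMB) and 2923 without COMB replicate 1 (23.4%, 10.4% higher). The number of calls was also lower when either CTR library or either anti-PD-1 library, all outside the comparison, was left out. With the replicate number as a block, where COMB replicate 3 drops out of the group differences, edgeR called 2 of all genes. With only the compared groups fitted it called 30. Under the block the list calls were 1 lineage factor and 0 in each other list, and with only the compared groups 1 partner, 1 inducer, 1 target, 1 lineage factor, 0 modifiers and 0 granule genes.

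The list counts in COMB against OAT-1746 are to be read against all genes, of which edgeR called 15.8%, 8.94% lower and 6.84% higher. An unadjusted p under 0.05 was reached by 37.1%, and DESeq2 called 25.4%. For the lists, edgeR called 0 genes in OAT-1746, anti-PD-1 or COMB against CTR and in COMB against anti-PD-1. With only the compared groups fitted, COMB against CTR had 5 calls over all genes, with 1 inducer, 1 target and 1 lineage factor called lower. In COMB against anti-PD-1, edgeR had 1 modifier, 3 inducers, 6 targets, 5 granule genes and 4 lineage factors at an unadjusted p under 0.05. The calls of DESeq2 were 0, 1, 2, 0 and 1 in that order. In this comparison 7.23% of all genes reached an unadjusted p under 0.05 in edgeR, and DESeq2 called 0.434%.

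The list of bZIP dimer partners, which includes Ddit3, held several genes that were lower in COMB than in OAT-1746. Jun, a subunit of AP-1, was at 1412 and 1244 CPM in CTR, 2826 and 4376 in OAT-1746, 1587 and 2184 in anti-PD-1, and 821, 671 and 718 in COMB. Atf4, the factor of the integrated stress response, was at 109 and 109 CPM in CTR, 213 and 280 in OAT-1746, 146 and 176 in anti-PD-1, and 102, 92.1 and 93.1 in COMB. For both genes every COMB library was below all others and both OAT-1746 libraries were above all others.

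In COMB against OAT-1746, edgeR called 4 of 9 partners lower and 0 higher: Jun (log2 fold change -2.29, adjusted p = 0.00528), Atf4 (-1.36, 0.00808), Atf3 (-2.16, 0.0160) and Fos (-1.57, 0.0192). The list's median was -0.51 against 0.00 over all genes tested, and -0.62 without OAT-1746 replicate 2. The number called lower was 2 without OAT-1746 replicate 2, 1 without COMB replicate 2 and 0 without COMB replicate 3. Higher calls numbered 2 without OAT-1746 replicate 1 and 1 without COMB replicate 1, fits in which 18.1% and 10.4% of all genes were called higher. At an unadjusted p under 0.05 there were 7 of 9, and DESeq2 called 5. The values without OAT-1746 replicate 2 were -1.93 for Jun (adjusted p = 0.00775 in edgeR) and -1.14 for Atf4 (0.0237), both called, and -1.48 for Atf3 (0.0568) and -0.98 for Fos (0.104).

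Against CTR the medians of the partners were 0.44 for OAT-1746, 0.31 for anti-PD-1 and -0.17 for COMB, beside 0.01, 0.02 and -0.00 over all genes, and the first was 0.49 without OAT-1746 replicate 2. At an unadjusted p under 0.05 edgeR had 5, 2 and 3 of these 9 genes, and 32.3%, 5.12% and 6.58% of all genes. DESeq2 called 4, 0 and 1 of the 9, and 16.4%, 0.114% and 0.285% of all genes. Against anti-PD-1, COMB had a median of -0.64 with 9 of 9 values negative. In edgeR 5 were at an unadjusted p under 0.05, as were 7.23% of all genes. DESeq2 called 3, and 0.434% of all genes. The interaction was called for 3 partners, all negative: Atf4 (-1.92, adjusted p = 0.0290 in edgeR), Jun (-2.80, 0.0290) and Atf3 (-2.89, 0.0499). They were -1.69, -2.43 and -2.21 without OAT-1746 replicate 2, still called (adjusted p of 0.0220, 0.0163 and 0.0402 in edgeR). Of 45 interaction calls over all genes, 0 were left without CTR replicate 1, CTR replicate 2, anti-PD-1 replicate 2, COMB replicate 2 or COMB replicate 3, or with the replicate block, against 2734 without OAT-1746 replicate 1, 424 without COMB replicate 1 and 26 without OAT-1746 replicate 2.

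**Figure D4:**
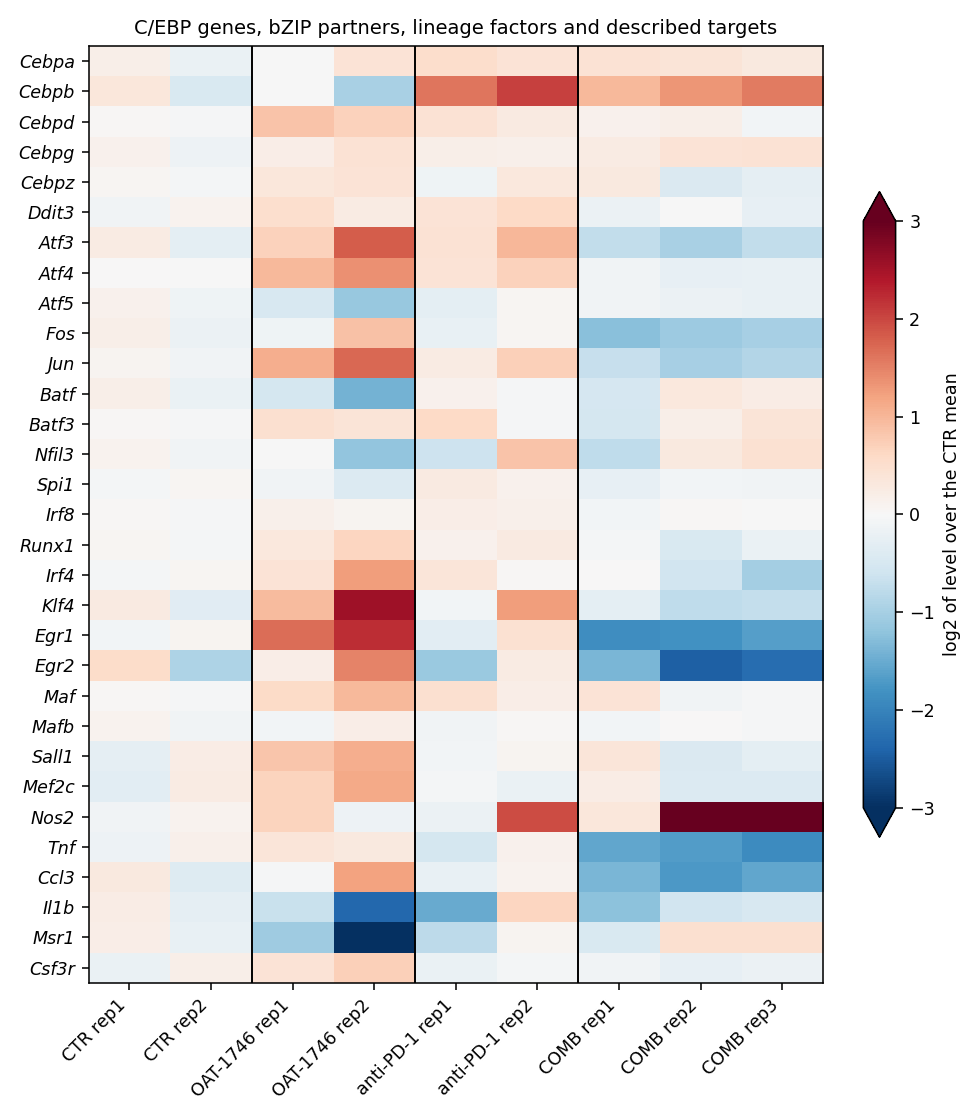
Log2 of each gene's level over the CTR mean in the 9 libraries, for C/EBP genes, bZIP partners, lineage factors and described targets, with the color scale ending at -3 and 3. Jun, Atf4, Egr1 and Tnf are low in the 3 COMB libraries relative to OAT-1746, whereas Cebpb is high in the 5 antibody libraries.

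Enzymes and adaptors that modify C/EBP proteins include the Tribbles pseudokinases that deliver C/EBP alpha to degradation and the kinases of the ERK and GSK3 pathways. In COMB against OAT-1746, edgeR called 1 of 11 lower, Gsk3b (log2 fold change -0.54, adjusted p = 0.0405), and 0 higher, with a list median of -0.04 (-0.08 without OAT-1746 replicate 2). At an unadjusted p under 0.05 there were 5 of 11, and DESeq2 called 3. Gsk3b was at 75.03 and 76.4 CPM in OAT-1746 against 57.7, 48.5 and 49.8 in COMB, and at 71.3 and 61.9 in CTR. Its difference was -0.51 without OAT-1746 replicate 2 (adjusted p = 0.203 in edgeR). The other large differences were Trib3 at 0.96, Celf1 at -0.54 and Rps6ka1 at -0.51, none of which passed in edgeR and which were 0.43, -0.40 and -0.39 without OAT-1746 replicate 2. The count called lower was 0 in 7 fits that each left out 1 library (either CTR, OAT-1746 replicate 2, either anti-PD-1, COMB replicate 2 or COMB replicate 3) and 3 without OAT-1746 replicate 1 or COMB replicate 1. In the fit without OAT-1746 replicate 1, where 18.1% of all genes were called higher, 1 modifier was. Medians against CTR were -0.02 for OAT-1746 (0.05 without its replicate 2), 0.01 for anti-PD-1 and -0.04 for COMB. In that order 1, 0 and 2 genes were at an unadjusted p under 0.05 in edgeR, and DESeq2 called 0, 0 and 0. The shares of all genes were 32.3%, 5.12% and 6.58% in edgeR and 16.4%, 0.114% and 0.285% by DESeq2.

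Cytokines, receptors and signal carriers that induce C/EBP transcription had 3 of 19 genes called lower and 0 higher in COMB against OAT-1746, a share of 15.8% as over all genes, with 10 at an unadjusted p under 0.05 and 6 called by DESeq2. They were Tnf (-2.02, adjusted p = 0.00528 in edgeR), the shared IL-6 receptor subunit Il6st (-0.93, 0.0318) and the G-CSF receptor Csf3r (-0.74, 0.0302), and the list's median was -0.30, or -0.10 without OAT-1746 replicate 2. Tnf was at 123 and 151 CPM in CTR, 176 and 167 in OAT-1746, 94.98 and 150 in anti-PD-1, and 46.5, 43.2 and 36.9 in COMB. All 3 COMB libraries were below all others for Tnf, although COMB against CTR did not pass (-1.70, adjusted p = 0.184 in edgeR). The receptor genes Csf2ra and Csf2rb were at 0.79 and 0.77 and did not pass, and without OAT-1746 replicate 2 they were at 0.27 and 0.29.

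In the fit without OAT-1746 replicate 2 the differences were -2.05 for Tnf (adjusted p = 0.00904 in edgeR), -0.79 for Il6st (0.185) and -0.56 for Csf3r (0.185). Of the inducers, 1 was called lower without OAT-1746 replicate 2 or COMB replicate 2, 0 without COMB replicate 3, 5 without OAT-1746 replicate 1 and 6 without COMB replicate 1. Calls of higher level numbered 4 without OAT-1746 replicate 1 and 1 without COMB replicate 1, where 18.1% and 10.4% of all genes were called higher. The list's medians against CTR were 0.20 for OAT-1746 (0.14 without its replicate 2), -0.02 for anti-PD-1 and -0.13 for COMB. In that order 8, 1 and 1 genes were at an unadjusted p under 0.05 in edgeR, and DESeq2 called 5, 0 and 1. All genes together had shares of 32.3%, 5.12% and 6.58% in edgeR and 16.4%, 0.114% and 0.285% by DESeq2. The interaction was called for Tnf (-1.86, adjusted p = 0.0495 in edgeR) and was -1.88 (0.0666) without OAT-1746 replicate 2.

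The described C/EBP targets in macrophages reported here were 20 genes, of which 19 were tested, Csf3 having 0 counts in every library. In COMB against OAT-1746, edgeR called 3 of the 19 lower, Tnf, Csf3r and the chemokine Ccl3 (log2 fold change -2.26, adjusted p = 0.0160), and 0 higher, which is 15.8% as over all genes. Ccl3 was -1.49 without OAT-1746 replicate 2 (adjusted p = 0.0615 in edgeR). The median was 0.31, above 0 because 12 of the 19 values were positive, and 0.08 without OAT-1746 replicate 2. At an unadjusted p under 0.05 there were 6 in both directions together, and DESeq2 called 4, both below the shares over all genes.

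Nos2, the inducible nitric oxide synthase, was at 16.9 and 19.5 CPM in CTR, 28.9 and 16.5 in OAT-1746, 16.0 and 70.9 in anti-PD-1, and 23.0 and then 184 and 210 in COMB. COMB replicates 2 and 3 were far above every other library. Neither Nos2 (2.61, adjusted p = 0.0723 in edgeR) nor the scavenger receptor gene Msr1 (2.14, 0.0761) passed in COMB against OAT-1746, and without OAT-1746 replicate 2 they were at 2.27 and 1.31.

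Calls of higher targets numbered 4 without OAT-1746 replicate 1 and 1 without COMB replicate 1, with 18.1% and 10.4% of all genes called higher in these fits. Targets called lower numbered 1 without OAT-1746 replicate 2 or COMB replicate 2 and 0 without COMB replicate 3. Against CTR the medians of the targets were 0.23 for OAT-1746 (0.12 without its replicate 2), -0.06 for anti-PD-1 and 0.03 for COMB. In that order 4, 1 and 7 genes were at an unadjusted p under 0.05 in edgeR, and DESeq2 called 2, 0 and 2. Among all genes the shares were 32.3%, 5.12% and 6.58% in edgeR and 16.4%, 0.114% and 0.285% by DESeq2.

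Neutrophil granule genes, several of which depend on C/EBP epsilon during granulocyte maturation, gave 0 calls among 7 tested of 10 in COMB against OAT-1746, with 0 at an unadjusted p under 0.05 in edgeR and 0 by DESeq2. Mpo, Elane and Ctsg were too low to be tested. Ngp, at 9.61 to 57.7 CPM, had its highest value in OAT-1746 replicate 2. The medians were -0.16 in COMB against OAT-1746 and 0.90 for OAT-1746, -0.35 for anti-PD-1 and 0.74 for COMB against CTR, with 3, 0 and 1 genes at an unadjusted p under 0.05 and 0, 0 and 0 by DESeq2. Leaving out OAT-1746 replicate 2 turned the first median to 0.27 and lowered that of OAT-1746 against CTR to 0.28. In COMB against anti-PD-1 the median was 1.13, the largest of this list, with 5 of 7 values positive and 0 called by edgeR or DESeq2. An unadjusted p under 0.05, which 7.23% of all genes reached, was found for 4 that were higher in COMB (Camp, Ngp, Ltf and Lcn2) and 1 that was lower, Mmp8 (-0.76). The sum of the neutrophil markers, a list that also holds Ltf, Camp, Ngp and Mmp9, was likewise higher in COMB than in anti-PD-1. By group means S100a8, S100a9 and Ly6g of that list were higher in COMB too. Csf3r, Retnlg and Cxcr2 were lower, at 256, 14.9 and 2.07 CPM in COMB against 265, 18.2 and 2.51 in anti-PD-1. The part of the neutrophil markers in the granule gene values was not tested.

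PU.1 and other myeloid lineage factors, which share enhancers with C/EBP alpha and beta, had 7 of 12 tested genes called lower in COMB against OAT-1746 and 0 higher. Egr1 (-3.74, adjusted p = 0.00148 in edgeR), Egr2 (-2.94, 0.0247) and Klf4 (-2.53, 0.0230) had the largest differences, followed by Irf4 (-1.36), Mef2c (-1.09), Sall1 (-1.06) and Runx1 (-0.72). The list's median was -0.89 (-0.68 without OAT-1746 replicate 2), with 8 at an unadjusted p under 0.05 and 8 called by DESeq2. Only Egr1 was called without OAT-1746 replicate 2 (-3.44, adjusted p = 0.00115 in edgeR), while Egr2 was -2.14 (0.156), Klf4 -1.51 (0.148) and the other 4 between -0.90 and -0.54. The count was 1 without OAT-1746 replicate 2, COMB replicate 2 or COMB replicate 3, and 4 without CTR replicate 1 or anti-PD-1 replicate 1. Spi1, which encodes PU.1, was at 377 to 603 CPM with a log2 fold change of 0.11 (adjusted p = 0.620 in edgeR).

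Egr1 was at 767 and 851 CPM in CTR, 2591 and 3730 in OAT-1746, 655 and 1117 in anti-PD-1, and 224, 231 and 256 in COMB. It was lowest in COMB in every library and highest in OAT-1746, and it was the 1 gene called for the average effect of the antibody (-1.80, adjusted p = 0.0499 in edgeR). With the replicate number as a block, or with GC content and length correction, edgeR called 0 genes for this effect. For that effect 0 genes were called without either CTR library, anti-PD-1 replicate 1 or any 1 COMB library, 1 without OAT-1746 replicate 2 or anti-PD-1 replicate 2, and 1478 without OAT-1746 replicate 1. The interaction was called as well (-3.87, adjusted p = 0.0285 in edgeR), also without OAT-1746 replicate 2 (-3.56, 0.0163). The medians of the lineage factors against CTR were 0.84 for OAT-1746 (0.38 without its replicate 2), 0.18 for anti-PD-1 and -0.15 for COMB. In that order 7, 0 and 2 genes were at an unadjusted p under 0.05 in edgeR, and DESeq2 called 5, 0 and 1. Of all genes, 32.3%, 5.12% and 6.58% were at such a p in edgeR, and DESeq2 called 16.4%, 0.114% and 0.285%.

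Cell type markers were summed in each library because Cebpb and Cebpd levels differ between myeloid cell types. Microglia markers (8 genes, Cx3cr1 the most abundant of them) summed to 8583 and 13962 CPM in CTR, 19032 and 24070.3 in OAT-1746, 12818 and 10949 in anti-PD-1, and 15805, 11326 and 10757 in COMB. Both OAT-1746 libraries were above all others, as they were for Cebpd and Cebpz, and the part of this in the Cebpd and Cebpz values was not tested. The list genes called lower in COMB than in OAT-1746 moved the same way as these markers between the 2 groups. They include the partners, the inducers, the targets and the lineage factors, among them the microglial factors Sall1 and Mef2c. The part of the microglia markers in those calls was not tested either. Monocyte and macrophage markers summed to 2590 and 2703 CPM in CTR, 2635 and 411 in OAT-1746, 3013 and 3485 in anti-PD-1, and 2017, 2079 and 2254 in COMB. OAT-1746 replicate 2 was lowest, as for Cebpb, and COMB was below CTR. Both anti-PD-1 libraries were above all others only with Plac8 in the sum. The other 7 genes summed to 1999 and 2641 CPM in anti-PD-1 against 2245 and 2125 in CTR. Without Plac8 these groups overlapped, although anti-PD-1 replicate 2 was still the highest library. The part of these markers in the Cebpb values was not tested.

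NK cell markers (7 genes, Gzma the most abundant) summed to 33.3 and 29.9 CPM in CTR, 48.8 and 14.8 in OAT-1746, 203 and 104 in anti-PD-1, and 42.6, 91.5 and 99.6 in COMB. They were high in most antibody libraries, as Cebpb was, with COMB replicate 1 below OAT-1746 replicate 1, and their part in the Cebpb values was not tested. Neutrophil markers (10 genes, Csf3r the most abundant) summed to 321 and 496 CPM in CTR, 540 and 730 in OAT-1746, 373 and 366 in anti-PD-1, and 459, 460 and 458 in COMB, while the neutrophil surface marker Ly6g was at 0.0601 to 1.03 CPM. Both OAT-1746 libraries were highest with Csf3r in the sum. The other 9 genes summed to 158 and 255 CPM in OAT-1746, the latter the highest of the 9 libraries, against 71.5 and 168 in CTR, 120 and 88.7 in anti-PD-1, and 190, 217 and 204 in COMB. The part of these markers in the Cebpd values was not tested.

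Border-associated macrophage markers (6 genes, Mrc1 the most abundant) summed to 442 to 610 CPM. Without Mrc1 the other 5 genes summed to 354 and 390 CPM in CTR and to 204 and 121 in OAT-1746. In anti-PD-1 these 5 summed to 237 and 270 CPM, and in COMB to 215, 337 and 313. Dendritic cell markers (6 genes, Ccr7) summed to 62.6 to 124 CPM. T cell markers (5 genes, Cd4) summed to 6.80 to 12.4 CPM with Cd3e at 0.528 or less, and B cell markers (2 genes, Cd79a) to 1.70 or less. Oligodendrocyte (4 genes, Mbp), astrocyte (4 genes, Slc1a3) and endothelial markers (4 genes, Flt1) summed to 129 to 258, 97.2 to 220 and 78.5 to 133 CPM. The sorted cells carried the marker of the sort, Itgam (CD11b), at 294 to 446 CPM and Ptprc (CD45) at 379 to 760, 745 to 1086 for both together.

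**Figure D5:**
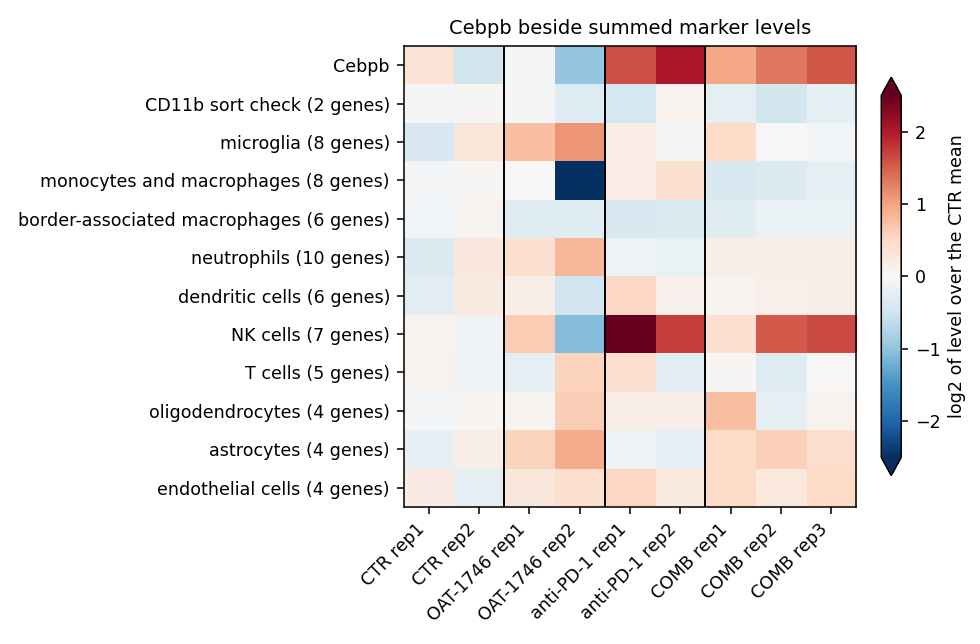
Log2 over the CTR mean of Cebpb and of the summed level of each marker list (number of genes in parentheses) in the 9 libraries, with the color scale ending at -2.5 and 2.5. NK cell markers are high in anti-PD-1 and in COMB replicates 2 and 3, and monocyte and macrophage markers are low in OAT-1746 replicate 2.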

How the data were processed

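RNA sequencing reads of CD11b+ cells were trimmed, aligned to mm10 and counted per gene and strand by the authors, and the deposited values are raw counts of 53801 Ensembl genes in 9 libraries. GENCODE M21 gave a symbol and class to 53620 of them, and 181 had no entry. Protein-coding genes past filterByExpr (minimum count 10) were normalized by TMM and fitted with edgeR 4.0.16 (R 4.3.3), 1 mean per group over all 9 libraries, and tested by the quasi-likelihood test with Benjamini-Hochberg adjustment over 12538 genes. Alternatives used DESeq2 1.42.0, limma 3.58.1, other filters and scalings, GC content and length offsets, a replicate block, and fits without each library. The block gave COMB replicate 3 a term of its own, since no other group has a replicate 3. The members, gene lists and marker lists were chosen with earlier results of these data known. Named genes are the 5 members with Cebpe and Ddit3, genes of the lists (of a list with over 10 tested genes, the called ones and up to 4 with the largest log2 fold change at a mean of at least 5 CPM), and for each member the 5 genes with the highest Pearson's r of log2 CPM (prior count 2). The marker lists covered the CD11b sort, microglia, monocytes and macrophages, border-associated macrophages, neutrophils, dendritic, NK, T and B cells, oligodendrocytes, astrocytes and endothelial cells. Some genes of these lists are not reported here, and each list is described without them. A run of the fit on simulated data is not reported here, and no statement rests on it.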

Additional observations from a re-analysis of the deposited data

Results flagged for a closer look

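For 6 genes the effect of OAT-1746 differed with and without the antibody by a test of that difference itself, the interaction in edgeR (Benjamini-Hochberg adjusted over 12538 genes). The log2 interaction was -3.87 for Egr1 (adjusted p = 0.0285), -1.92 for Atf4 (0.0290) and -2.80 for Jun (0.0290). It was -2.89 for Atf3 (0.0499) and -1.86 for Tnf (0.0495). These 5 genes come from lists chosen with earlier results of these data known. For 2410002F23Rik the log2 interaction was -1.82 (adjusted p = 0.0401), and -1.66 without OAT-1746 replicate 2. That gene was picked for following Cebpd over the same libraries, so a negative value came with the choice and is not read as a result. The other 5 are negative too, as are 44 of the 45 called over all genes, and 0 of those calls were made by edgeR without CTR replicate 1, CTR replicate 2, anti-PD-1 replicate 2, COMB replicate 2 or COMB replicate 3, or with the replicate number as a block. Without OAT-1746 replicate 2, Tnf was -1.88 (adjusted p = 0.0666 in edgeR). At an unadjusted p under 0.05 edgeR had 3281 genes for the interaction, and DESeq2 called 1053.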

How the results depend on the processing

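Of 1008 log2 differences of members, Cebpe and Ddit3 recomputed under the alternatives, 939 kept their direction and their side of the threshold (for Cebpb, moved by less than 1 SD). Of 1056 list counts 939 stayed within 1.5 times. Where values did not, the cause was not tested.

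For Cebpb, GC content and length correction gave 1.39 in anti-PD-1 and 0.83 in COMB against CTR, and 0.64 in COMB with a replicate block added. Leaving out 1 library gave -0.97 to 0.054 for OAT-1746, 1.49 to 2.30 for anti-PD-1 and 0.95 to 1.78 for COMB against CTR. Its interaction was 0.068 with limma voom and -0.57 to 0.42 over fits without 1 library.

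Replicate numbers showed no pairing of libraries: of 12 same-numbered pairs 0 correlated above 0.1, the highest r being 0.0999. These pairs are not all separate, since between groups of 2 libraries replicates 1 and 2 gave the same r. It was 0.0833 for CTR with OAT-1746, -0.217 for CTR with anti-PD-1 and -0.202 for OAT-1746 with anti-PD-1. The block fits give COMB replicate 3 a term of its own, so their COMB values rest on COMB replicates 1 and 2. With the replicate block, Cebpb against CTR was -0.42 for OAT-1746, 1.90 for anti-PD-1 and 1.20 for COMB, and Cebpd in COMB against OAT-1746 was -0.62 (adjusted p = 0.217 in edgeR), or -0.74 (0.180) with block and GC correction. A fit of the compared groups alone gave -0.69 (0.0781), and fits without 1 library -0.76 to -0.61. Members called there fell from 1 to 0 under those 3 settings and were 0 to 2 without 1 library.

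Cebpd in OAT-1746 against CTR was called by DESeq2 (0.77, adjusted p = 0.00217) and by edgeR with no filter (0.78, 0.0385), and was 0.69 to 0.86 without 1 library. Members called there were 1 in both settings, which called 16.4% and 3.65% of all genes, and 0 to 1 without 1 library. For the interaction they were 1 with DESeq2 (9.50% of genes) and with limma voom (3.41%) and 0 to 1 without 1 library.

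Signs also turned for differences that had not passed the test. Under GC correction Cebpa in COMB against OAT-1746 was -0.053 (-0.020 with block) and Cebpd in COMB against CTR -0.0040, the latter -0.013 with limma voom. Cebpg in COMB against OAT-1746 was -0.011 with library size alone, a scaling that moved the median of all genes there from 0.0029 to -0.046, so the sign turned with that shift. It put the median interaction at -0.11. With the block Cebpe was 0.23 in COMB against CTR and 0.53 for the interaction (0.32 with GC correction). The antibody average of Ddit3 was 0.0032 with DESeq2, 0.0029 with its size factors, 0.0049 with no filter, 0.0039 with at least 10 counts in every library, and 0.019 with the block.

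Fits without 1 library also turned signs. For Cebpa the range was -0.0087 to 0.43 (OAT-1746 against CTR), -0.044 to 0.41 (COMB against OAT-1746). For Cebpg the range was -0.069 to 0.19 (COMB against OAT-1746), -0.26 to 0.030 (interaction). For Cebpz the range was -0.14 to 0.33 (anti-PD-1 against CTR), -0.36 to 0.037 (COMB against CTR), -0.45 to 0.040 (COMB against anti-PD-1). For Cebpe the range was -2.72 to 0.19 (OAT-1746 against CTR), -0.31 to 1.47 (anti-PD-1 against CTR), -0.50 to 0.15 (COMB against CTR), -0.35 to 2.52 (COMB against OAT-1746), -1.67 to 0.12 (COMB against anti-PD-1), -1.19 to 1.70 (interaction). For Ddit3 the range was -0.063 to 0.066 (antibody average effect).

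Groups of 2 or 3 libraries limit every test, and a group left with 1 library is assumed to vary like the others. OAT-1746 replicate 2 differs from its pair, and without it that group is 1 library. COMB replicates 2 and 3 were closer to each other than any other pair within a group. Cebpe, at 5 or fewer CPM, has the least precise values.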
